A study of Mus musculus with 9 samples.

Results

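Inhibitory receptors of myeloid cells were described in dendritic cells (DCs) sorted from mouse spleen, with and without the transcription factor C/EBPβ. The set holds 8 genes, namely Lilrb4a, Pirb, Havcr2, Cd200r1, Cd300a, Cd300lf, Siglece and Sirpa, out of 22180 genes tested. A probe was taken as a member's when the platform annotation gave it that gene symbol alone, which left 1 probe for each of the 8 genes and no filter on signal. Lilrb4a also lies on 1 probe shared with a neighbouring gene and Cd300lf on 2 such shared probes, which were not used here.

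The 3 knockout samples, labelled C/EBPβ-/-, came from CD11c-Cre mice crossed to mice with a loxP-flanked C/EBPβ gene (C/EBPβflox/flox), and the 6 control samples were C/EBPβ+/+. The labels name both C57BL/6 and CD11c.Cre mice among the sources without saying which control came from which, so some controls may lack the Cre. The CD11c (Itgax) promoter drives the Cre and is also active in some macrophages and monocytes. Both groups were labelled C57BL/6 and naive, and both were gated as CD11c-positive and MHC class II-positive. The labels used here give no age and do not say whether animals were pooled or whether the replicates are separate animals, so the p-values reflect only how far these samples scatter, which could be a technical spread.

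Inhibitory receptors set a threshold for the activation of myeloid cells. In most of them the cytoplasmic tail carries an immunoreceptor tyrosine-based inhibitory motif (ITIM), which is phosphorylated by Src family kinases and then recruits the phosphatases SHP-1, SHP-2 or SHIP1. Many lie in gene clusters beside activating relatives that have similar ligand-binding domains but signal through the adaptors DAP12 (Tyrobp) or the Fc receptor gamma chain (Fcer1g). In the spleen SIRPα marks the DC subset called cDC2, whereas TIM-3, the product of Havcr2, is found on the subset called cDC1.

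Promoters are shown because the deleted gene encodes a DNA-binding factor, and because myeloid genes are often controlled by PU.1, a factor of the ETS family. RefSeq promoter windows of 300 bases (250 before to 50 after a transcript start, build GRCm38.p6) were found for 5 of the 8 genes, the exceptions being Lilrb4a, Cd200r1 and Sirpa. A pair of letter patterns was searched on both strands: GAGGAAGT for the PU.1 box (ACTTCCTC on the other strand) and TTNCNNAA for a loose C/EBP site (TTNNGNAA on the other strand). The PU.1 box was found in 3 of the 5 windows, against 3.20% of 32851 RefSeq promoter windows of this length. The C/EBP pattern was found in 4 of the 5, and it is common, with a match in 40.7% of all windows. The windows with a PU.1 box are those of Cd300lf, Havcr2 and Pirb, given here 5′ to 3′ with the matched bases of either pattern in capitals.
Cd300lf, chr11:115133943-115134242, minus strand: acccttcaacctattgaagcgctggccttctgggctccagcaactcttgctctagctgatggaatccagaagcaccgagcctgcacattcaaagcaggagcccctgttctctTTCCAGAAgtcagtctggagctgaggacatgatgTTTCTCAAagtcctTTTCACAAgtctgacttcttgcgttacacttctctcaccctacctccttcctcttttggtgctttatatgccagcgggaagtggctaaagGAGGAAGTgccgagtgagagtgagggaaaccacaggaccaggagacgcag
Havcr2, chr11:46454681-46454980, plus strand: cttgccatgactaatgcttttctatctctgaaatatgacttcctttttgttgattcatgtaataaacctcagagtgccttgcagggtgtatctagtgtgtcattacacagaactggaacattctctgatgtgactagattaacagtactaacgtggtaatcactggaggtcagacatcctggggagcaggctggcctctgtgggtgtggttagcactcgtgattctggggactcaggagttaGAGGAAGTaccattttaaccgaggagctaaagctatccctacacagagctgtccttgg
Pirb, chr7:3720333-3720632, minus strand: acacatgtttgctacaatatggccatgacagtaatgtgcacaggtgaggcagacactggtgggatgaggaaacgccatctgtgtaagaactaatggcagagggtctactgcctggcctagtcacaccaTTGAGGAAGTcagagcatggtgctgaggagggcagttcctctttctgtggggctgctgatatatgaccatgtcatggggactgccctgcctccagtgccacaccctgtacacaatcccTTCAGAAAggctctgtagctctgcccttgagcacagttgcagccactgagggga

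In the Cd300lf window the PU.1 box begins at position 1 of the transcript, and 3 matches to the C/EBP pattern lie upstream, beginning at positions -138, -104 and -90. In the Havcr2 window the PU.1 box begins at position -8 and the C/EBP pattern was not found. In the Pirb window the PU.1 box begins at position -120 and overlaps a C/EBP match that begins at -122, so these are 1 run of capitals. A match of letters is a description of the window and not evidence of binding, and no binding was measured.

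All values are log2 intensities from 1 array per sample, so a difference of 1 is a doubling on the scale of the array. Array medians lay between 5.49 and 5.56. Cebpb was lower in each knockout than in every control, at 5.37, 5.60 and 5.42 in knockouts 1 to 3, against 6.64 to 7.15 in the 6 controls (change -1.35, SE 0.11, limma's adjusted p = 0.00074). Itgax, which encodes CD11c and was chosen after its values were seen, had a mean of 12.15 in the knockouts and 12.16 in the controls. The brightest DC markers were the MHC class II genes H2-Ab1, with means of 13.72 in the knockouts and 13.68 in the controls (change 0.036, limma's adjusted p = 0.81), and H2-Aa, with 13.27 in the knockouts and 13.17 in the controls (change 0.094, limma's adjusted p = 0.48). Among the 7 measured DC markers 0 passed the test by limma and 0 had an unadjusted p under 0.05. Over all genes 201 passed an adjusted p of 0.05, or 0.906%, with 92 higher in the knockout (0.415%) and 109 lower (0.491%).

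Of the 8 inhibitory receptors, Lilrb4a was higher in the knockout and none was lower after adjustment over all genes (limma). At an unadjusted p under 0.05 there were 2 higher (Lilrb4a and Havcr2, against 5.5% of all genes) and 1 lower (Cd300lf, against 8.82%). The median change of the 8 was 0.091, with a range from -0.33 to 0.63, and the median over all genes was -0.014. The median of the 8 was not stable, at 0.035 without knockout 1, 0.047 without control 3, 0.0042 against controls 4 to 6 alone and 0.019 with red pulp macrophage markers as a covariate. In 5 of the 8 the change was above 0, as it was in 45% of all genes. The median of the 8 in single samples, centred on the control mean, was 0.013 to 0.037 over the 3 knockouts and -0.12 to 0.080 over the 6 controls.

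**Figure D1:**
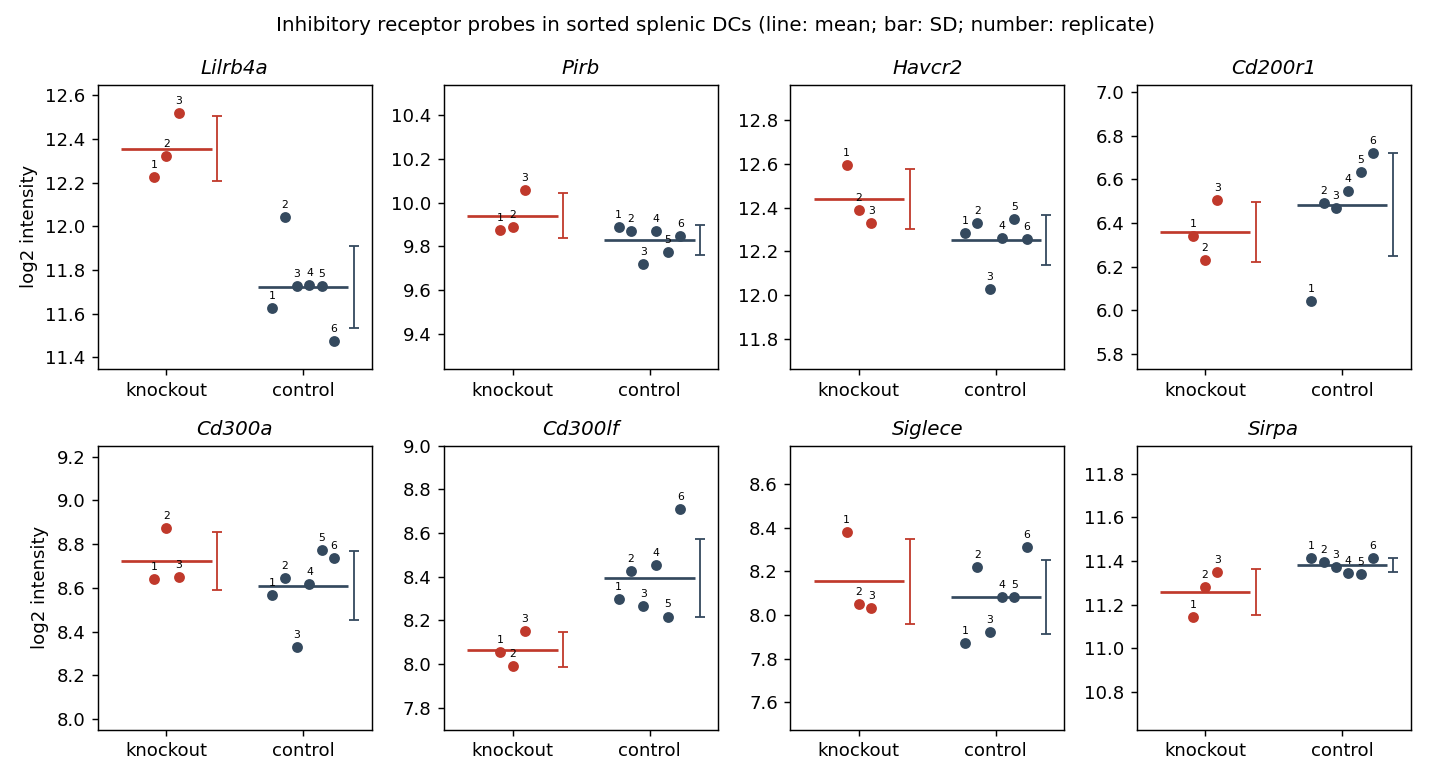
Log2 intensity of the 8 inhibitory receptor probes in each sample, with knockouts left and controls right, a line at the group mean, a bar for the SD and the replicate number above each point. All panels span the same height around their own centre. Knockouts and controls do not overlap for Lilrb4a and Cd300lf and overlap for the other 6 genes.

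Lilrb4a encodes LILRB4 (gp49B), an ITIM receptor of mast cells, macrophages and DCs for which fibronectin and the integrin αvβ3 have been reported as ligands. On the log2 scale the probe read 12.23, 12.32 and 12.52 in knockouts 1 to 3, against 11.63, 12.04, 11.73, 11.73, 11.73 and 11.48 in controls 1 to 6. Every knockout lay above every control, with a gap of 0.18 between the lowest knockout and control 2, which stood above the other controls. Knockouts lay wholly above controls in 2.52% of all genes. The mean was 12.35 ± 0.15 in the knockouts (SD, n = 3) and 11.72 ± 0.19 in the controls (SD, n = 6). The log2 change was thus 0.63 and the fold 1.55 (SE 0.11 on the log2 scale, 95% confidence interval 0.39 to 0.88). It passed by limma at an adjusted p = 0.034. The related gene Lilr4b had no usable probe of 1 symbol, and how far the Lilrb4a probe reads Lilr4b transcripts was not tested.

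The Lilrb4a change was above 0 in all 19 other settings, and the pass was not kept in all of them. Leaving samples out could not turn its direction, since every knockout lay above every control. Changing the variance moderation, the filter on dim genes or the probe summary left it at 0.63. The replicate block gave the same change as controls 1 to 3 alone, so the settings are not separate checks of direction. With 1 sample left out at a time the change lay between 0.55 and 0.70. The adjusted p was under 0.05 without knockout 1 (0.037) or without control 2 (0.015). It was above it without knockout 2 (0.13) or 3 (0.086) and without control 1 (0.072), 3 (0.074), 4 (0.084), 5 (0.074) or 6 (0.058). Against controls 1 to 3 alone the change was 0.56 (adjusted p = 0.31), and against controls 4 to 6 alone it was 0.71 (adjusted p = 0.084).

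**Figure D2:**
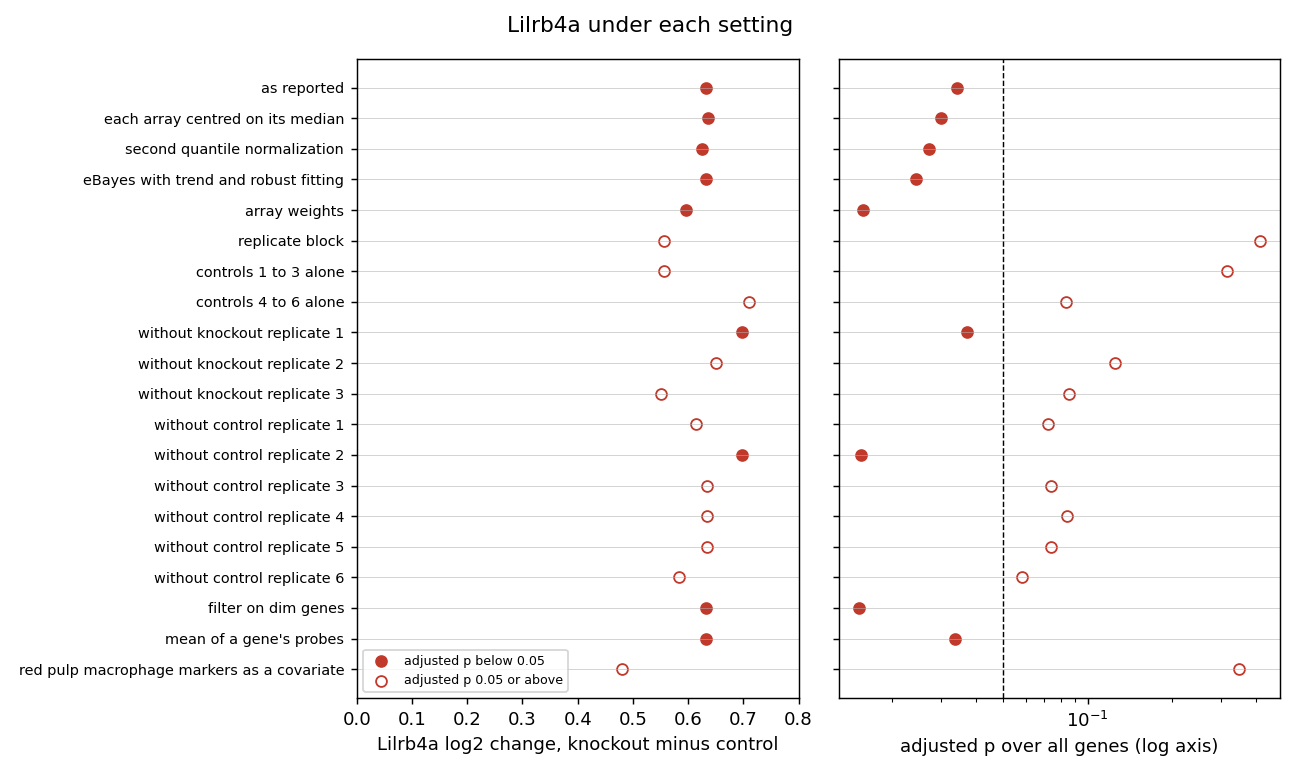
Log2 change of Lilrb4a (left, knockout minus control) and its adjusted p over all genes (right, log axis, dashed line at 0.05) as reported and under 19 other settings, with filled points for an adjusted p below 0.05. The change stays between 0.48 and 0.71 while the adjusted p lies above the threshold in 11 of the 19.

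Red pulp macrophage markers are given beside Lilrb4a, and the samples stood in the same order only in part. Of 14 measured red pulp macrophage markers 0 passed by limma after adjustment, while 8 were higher and 0 lower at an unadjusted p under 0.05. Over all genes 5.5% were higher and 8.82% lower at that unadjusted p. The smallest p of the list belonged to Cd163 (change 0.42, limma's adjusted p = 0.074) and Axl (change 0.81, limma's adjusted p = 0.081), both chosen after their values were seen and both higher in every knockout than in any control. Set against the control mean, the median of the list stood at 0.25, 0.75 and 0.72 in knockouts 1 to 3. In controls 1 to 6 it was 0.18, 0.48, -0.54, -0.030, 0.069 and -0.24, so control 2 was the highest control both here and for Lilrb4a. Control 6 was the lowest control for Lilrb4a, at 11.48, and second lowest for the markers. Control 3 had the lowest marker median with a Lilrb4a value of 11.73, and control 1 was second highest among controls for the markers and second lowest for Lilrb4a. Knockout 2 was highest for the markers and knockout 3 for Lilrb4a. The summed intensity of the list, on the linear scale, ranged from 8419 to 11359 in the knockouts and from 4631 to 10051 in the controls, and its brightest members were Adgre1 and Hmox1. With the mean of these markers as a covariate the Lilrb4a change was 0.48 and did not pass (limma's adjusted p = 0.35), in a setting chosen after seeing the data. Knockout 1 had a lower marker median than control 2 and a higher Lilrb4a value, at 12.23 against 12.04. These are values of single samples, and how closely the orders match was not tested.

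The list of classical monocyte and neutrophil markers had medians of 0.20, 0.23 and 0.15 in knockouts 1 to 3, against -0.093 to 0.028 in the controls. Of its 11 measured genes 0 passed by limma. Before adjustment, 5 were higher and 0 lower at p under 0.05, against 5.5% and 8.82% of all genes. Csf3r (change 0.46, limma's adjusted p = 0.057) and Fcgr1 (change 0.80, limma's adjusted p = 0.070) had the smallest p, without overlap of the groups, and were chosen after their values were seen. Its summed intensity was 4609 to 5413 in the knockouts and 3634 to 4476 in the controls, with Lyz2 and Ly6c2 brightest, and its part in the Lilrb4a change was not tested. Among non-classical monocyte markers 3 of 10 were higher by limma, against 0.415% of all genes. These were Ace, Adgre4 and Fabp4, which were named for passing. The medians of the list were 0.038, 0.058 and 0.24 in knockouts 1 to 3, against -0.14 to 0.085 in the controls, so the groups overlapped, and the median change was 0.025. That count of 3 became 1 without knockout 2 and 2 without any other single sample. It was 0 with the replicate number as a block, against controls 1 to 3 or 4 to 6 alone, and with red pulp macrophage markers as a covariate. The summed intensity was 16963 to 17980 in the knockouts and 13387 to 16733 in the controls, with Nr4a1 and Treml4 brightest, and this too was not tested for a part in the result. In RNA of sorted cells, a different share of a cell type and a different amount of RNA per cell cannot be told apart.

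**Figure D3:**
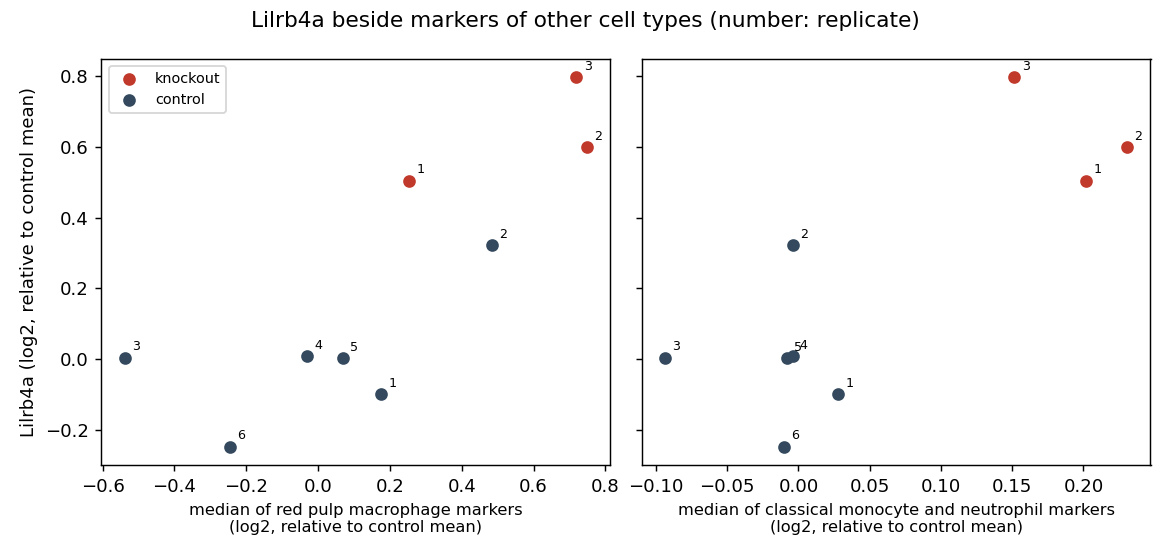
Lilrb4a in each sample, relative to the control mean on the log2 scale, against the median of red pulp macrophage markers (left) and of classical monocyte and neutrophil markers (right), with the replicate number beside each point. Control 2 is the highest control for Lilrb4a and for the red pulp markers, and the 3 knockouts lie above all controls for Lilrb4a and for the monocyte and neutrophil markers.

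Among the genes compared, those whose values ran closest to Lilrb4a over the 9 samples were Maf, Fas and Gdap10. Closeness was the root mean square difference of values centred on the control mean. Predicted genes, RIKEN clones, small RNAs, olfactory receptors and all symbols beginning with Rn were left out of the comparison. The difference was 0.11 for Maf, a transcription factor expressed in macrophages, and 0.13 both for Fas, a death receptor, and for Gdap10. Maf changed by 0.66 (limma's adjusted p = 0.048) and Fas by 0.63 (limma's adjusted p = 0.0042), and Gdap10 differed by 0.45 (limma's adjusted p = 0.088). This likeness includes the difference between the groups.

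Pirb encodes the paired immunoglobulin-like receptor B, an ITIM receptor for MHC class I molecules and a relative of LILRB4. The Pirb probe read 9.87, 9.89 and 10.06 in knockouts 1 to 3, against 9.72 to 9.89 in the controls (median 9.86). Knockout 3 alone lay above the controls, and the other knockouts were inside their range. The change was 0.11 (SE 0.065, 95% confidence interval -0.034 to 0.25, limma's adjusted p = 0.49). The activating Pira genes of the same cluster share near-identical sequence with Pirb. None of the 9 Pira symbols searched had a probe of 1 symbol, and how far the Pirb probe reads Pira transcripts was not tested.

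Cd300lf encodes CLM-1, an ITIM receptor that binds ceramide and phosphatidylserine and limits the activation of mast cells and DCs. The Cd300lf probe read 8.06, 7.99 and 8.15 in knockouts 1 to 3, against 8.30, 8.43, 8.27, 8.46, 8.22 and 8.71 in controls 1 to 6. All knockouts lay below all controls, by a gap of 0.069, as in 4.88% of all genes. The mean was 8.07 ± 0.080 in the knockouts (SD, n = 3) and 8.40 ± 0.18 in the controls (SD, n = 6). The change of -0.33 (SE 0.10, 95% confidence interval -0.55 to -0.11) did not pass after adjustment over all genes (limma's adjusted p = 0.16, unadjusted p = 0.0079). Across the 19 other settings it lay between -0.40 and -0.27, with adjusted p from 0.072 to 0.59. Its promoter window is the one printed above with 3 C/EBP matches. The windows of Pirb, Cd300a and Siglece hold C/EBP matches too, with changes of 0.11, 0.11 and 0.072. Control of Cd300lf by C/EBPβ through these bases was not tested.

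Cd300a encodes another ITIM receptor of the same cluster, which binds phosphatidylserine and phosphatidylethanolamine on dying cells. In knockouts 1 to 3 the Cd300a probe read 8.64, 8.87 and 8.65, against 8.33 to 8.77 in the controls (median 8.63). The groups overlapped, with knockout 2 above and the other knockouts inside the control range. The change was 0.11 (SE 0.099, 95% confidence interval -0.11 to 0.33, limma's adjusted p = 0.68). It was 0.035 without knockout 2 and 0.054 without control 3, and it was 0.21 against controls 1 to 3 alone and 0.013 against controls 4 to 6 alone.

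The 5 measured activating relatives in the CD300 family all had changes above 0, from 0.073 to 0.40, as did 45% of all genes. By limma 0 passed. The groups overlapped for Cd300c, Cd300c2, Cd300e and Cd300ld, with limma's unadjusted p from 0.19 to 0.56. Cd300lb, which encodes the DAP12-coupled receptor CLM-7, had 7.35, 7.48 and 7.24 in knockouts 1 to 3, against 6.67 to 7.13 in the controls. Its groups did not overlap, in the direction opposite to Cd300lf, and its change was 0.40 (SE 0.11, limma's adjusted p = 0.13). A difference between the changes of Cd300lb and Cd300lf was not tested.

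**Figure D4:**
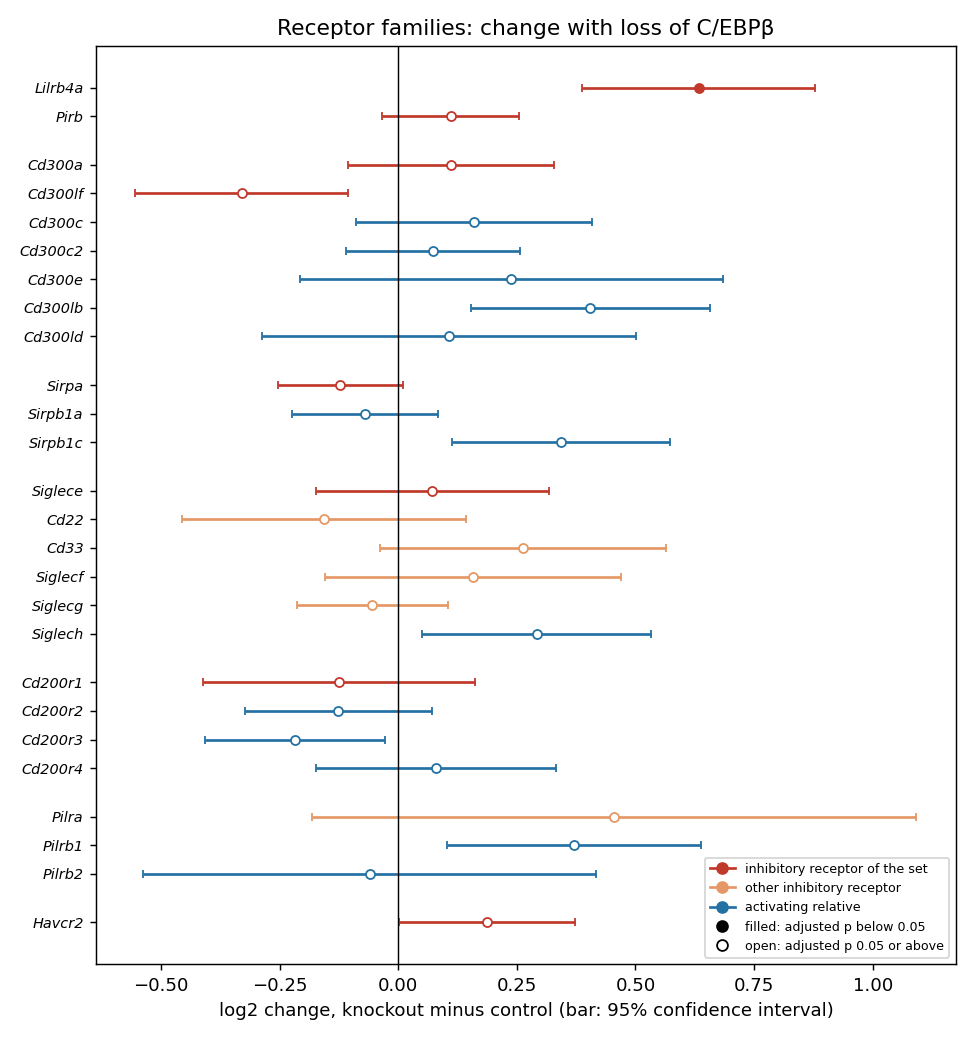
Log2 change, knockout minus control, with its 95% confidence interval for the 8 inhibitory receptors (red), other inhibitory receptors (orange) and activating relatives (blue). Genes are grouped by family, and the PILR family (Pilra, Pilrb1 and Pilrb2) holds none of the 8 receptors. Lilrb4a is the only filled point. The interval lies wholly above 0 for Lilrb4a, Cd300lb, Sirpb1c, Pilrb1, Siglech and Havcr2 and wholly below 0 for Cd300lf and Cd200r3. Siglech is also in the list of plasmacytoid DC markers described below. The intervals are unadjusted, and by limma 5.5% of all genes were higher and 8.82% lower at an unadjusted p under 0.05. Cd200r3 is dim, with means of 3.98 in the knockouts and 4.19 in the controls, below the array medians of 5.49 to 5.56.

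Sirpa encodes SIRPα, which binds CD47 on neighbouring cells, recruits SHP-1 and SHP-2 and limits phagocytosis. The Sirpa intensity was 11.14, 11.28 and 11.35 in knockouts 1 to 3, against 11.34 to 11.41 in the controls (median 11.39). Knockouts 1 and 2 lay below every control and knockout 3 was inside their range, near its lower end. The controls differed by at most 0.074, the smallest range of the 8 genes, and the knockouts by 0.21. The change was -0.12 (SE 0.059, 95% confidence interval -0.25 to 0.0090, limma's adjusted p = 0.39), and it was -0.064 without knockout 1 (adjusted p = 0.71).

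Other cDC2 markers went both ways beside Sirpa. Of the 9 measured, Sirpa included, 1 was higher (Mgl2) and 1 lower (Ltb), both named for passing (0.415% and 0.491% of all genes). The medians of the list were 0.098, -0.13 and -0.13 in knockouts 1 to 3, against -0.070 to 0.052 in the controls. Neither of these calls was kept without knockout 1, when Clec4a4 passed as lower, and 0 passed without any other single sample. The summed intensity of the list was 9394 to 11567 in the knockouts and 11011 to 12790 in the controls, with Cd4 and Sirpa brightest. Its part in the Sirpa difference was not tested. Sirpb1c, an activating relative of Sirpa, had 9.50, 9.39 and 9.94 in the knockouts, against 9.20 to 9.34 in the controls, without overlap (change 0.34, SE 0.10, limma's adjusted p = 0.16). The brighter relative Sirpb1a had 11.27, 11.14 and 11.28 in the knockouts, against 11.17 to 11.45 in the controls. Its groups overlapped (change -0.070, SE 0.070, limma's adjusted p = 0.72).

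Havcr2 encodes TIM-3, which lacks an ITIM, binds galectin-9, HMGB1 and phosphatidylserine, and has a tail bound by Bag6. The Havcr2 intensity was 12.59, 12.39 and 12.33 in knockouts 1 to 3, against 12.28, 12.33, 12.03, 12.26, 12.35 and 12.26 in controls 1 to 6. Knockouts 1 and 2 lay above every control, knockout 3 was below control 5, and control 3 stood apart at the low end. The change was 0.19 (SE 0.084, 95% confidence interval 0.0018 to 0.37) and did not pass after adjustment (limma's adjusted p = 0.34, unadjusted p = 0.048). It was 0.11 without knockout 1, the lowest value with 1 sample left out, and 0.24 without knockout 3.

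The cDC1 markers, among which Naaa and Cd8a were brightest, had medians of -0.19, -0.012 and -0.068 in knockouts 1 to 3, against -0.16 to 0.17 in the controls. Of 8 measured, 0 passed by limma, with 1 higher and 2 lower at an unadjusted p under 0.05 (5.5% and 8.82% of all genes). Their summed intensity was 15881 to 17844 in the knockouts and 16278 to 19835 in the controls. Knockout 1 thus had the highest Havcr2 value and the lowest cDC1 marker median, and the part of the cDC1 share in the Havcr2 values was not tested.

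Siglece encodes Siglec-E, an ITIM receptor for sialic acids on neutrophils, monocytes and macrophages. Log2 values of Siglece were 8.38, 8.05 and 8.03 in knockouts 1 to 3, against 7.87 to 8.31 in the controls (median 8.08). Knockout 1 lay above the controls and the other knockouts inside their range. The change was 0.072 (SE 0.11, 95% confidence interval -0.17 to 0.32, limma's adjusted p = 0.83), and it was -0.040 without knockout 1. Among the other samples left out, the lowest value was 0.030 without control 1 and the highest 0.13 without knockout 3.

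Cd200r1 encodes the receptor for CD200, which has no ITIM and recruits the adaptors Dok2 and Dok1. Log2 values of Cd200r1 were 6.34, 6.23 and 6.51 in knockouts 1 to 3, against 6.04, 6.49, 6.47, 6.55, 6.63 and 6.72 in controls 1 to 6. The knockouts were inside the control range, which control 1 set at its lower end. The change was -0.12 (SE 0.13, 95% confidence interval -0.41 to 0.16, limma's adjusted p = 0.73), and it was 0.025 against controls 1 to 3 alone. With 1 sample left out it was -0.061 without knockout 2, -0.078 without control 6, -0.20 without knockout 3 and -0.21 without control 1. For each of the 7 genes that did not pass, a change as large as the 0.63 of Lilrb4a lay outside the interval in both directions.

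Among 24 further inhibitory receptors of leukocytes, Fcgr2b alone passed, in the same direction as Lilrb4a, while 0.906% of all genes passed. It encodes the inhibitory Fc gamma receptor, whose ITIM recruits SHIP1. Its log2 intensity was 11.08, 10.96 and 11.16 in knockouts 1 to 3, against 10.16 to 10.62 in the controls (change 0.74, SE 0.095, limma's adjusted p = 0.0086). With 1 sample left out at a time the change was 0.69 to 0.79 and the call was kept (limma's adjusted p from 0.0028 to 0.041). The call was missed with the replicate number as a block (0.69, adjusted p = 0.40), against controls 1 to 3 alone (0.69, adjusted p = 0.25) and with red pulp macrophage markers as a covariate (0.59, adjusted p = 0.10). The median change of the 24 was 0.018. Before adjustment 4 were higher and 2 lower at p under 0.05 (5.5% and 8.82% of all genes). Without knockout 3 the count passing after adjustment was 2, with Ctla4 as the second.

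Activating counterparts and adaptors gave 0 of 22 past 0.05 by limma and a median of 0.077. Of these, 4 were higher and 1 lower at an unadjusted p under 0.05 (5.5% and 8.82% of all genes). The adaptors had changes of -0.0016 for Tyrobp and 0.13 for Fcer1g, both chosen after their values were seen. Cd300lb and Sirpb1c, described with their relatives, had the smallest p of this list.

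Signalling partners gave 0 of 23 past 0.05 by limma and a median of -0.011. Without adjustment 2 were higher and 1 lower at p under 0.05 (5.5% and 8.82% of all genes). Syk, the kinase of the activating pathway, had 10.32, 10.10 and 10.11 in knockouts 1 to 3, against 9.80 to 9.99 in the controls (change 0.26, SE 0.07, limma's adjusted p = 0.13). Cblb, a ubiquitin ligase that restrains tyrosine kinase signalling, differed by 0.22 (limma's adjusted p = 0.30). The phosphatases were chosen after their values were seen. Ptpn6, which encodes SHP-1, had 12.06, 11.89 and 12.00 in the knockouts, against 12.08 to 12.19 in the controls, without overlap (change -0.14, SE 0.06, limma's adjusted p = 0.31). Ptpn11, which encodes SHP-2, differed by -0.062 (95% confidence interval -0.27 to 0.15), and Inpp5d, which encodes SHIP1, had a 95% confidence interval of -0.15 to 0.15 for its change.

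Ligands gave 0 of 14 past 0.05 by limma and a median of 0.057. The unadjusted p was under 0.05 for 2 higher and 1 lower (5.5% and 8.82% of all genes). Thbs1, which encodes thrombospondin-1, a ligand of CD47, had 9.66, 9.33 and 8.57 in knockouts 1 to 3, against 7.73 to 8.71 in the controls (change 1.04, SE 0.25, limma's adjusted p = 0.087). Knockout 3 lay within the control range, and without it Thbs1 passed. Cd200, the ligand of Cd200r1, differed by 0.31 (SE 0.13, limma's adjusted p = 0.32), and Cd47, the ligand of Sirpa, which was chosen after its values were seen, by -0.036 (95% confidence interval -0.19 to 0.11).

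Markers of cells outside the myeloid lineages were read beside these results. The B cell markers had medians of 0.048, -0.082 and 0.67 in knockouts 1 to 3, against -0.041 to 0.16 in the controls, so knockout 3 stood apart. Their summed intensity was 2281 to 4813 in the knockouts and 2621 to 2834 in the controls, with Cd22 and Cd79b brightest. The plasmacytoid DC markers, with Bst2 and Spib brightest, had medians of 0.055, 0.078 and 0.45 in knockouts 1 to 3, against -0.096 to 0.12 in the controls. Of 11 and 8 genes measured in these lists, 0 passed by limma. Each had 2 higher and 0 lower at an unadjusted p under 0.05 (5.5% and 8.82% of all genes). The T and NK cell markers, with Cd4 and Cd8b1 brightest, had medians of -0.018 to 0.088 in the knockouts, against -0.067 to 0.043 in the controls, and 0 of 9 had an unadjusted p under 0.05. Cd4 is also in the cDC2 list, so its level is not particular to T and NK cells here. Likewise Siglech is in both the activating list and the plasmacytoid DC list. It read 7.32, 7.48 and 7.67 in knockouts 1 to 3, against 6.91 to 7.41 in the controls. Without knockout 3 the Lilrb4a change was 0.55, that of Cd300lf -0.37 and that of Pirb 0.051. None of them passed in that setting (limma's adjusted p = 0.086, 0.22 and 0.85). The part of the B cell or plasmacytoid DC share in these changes was not tested.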

How the data were processed

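Total RNA of sorted splenic DCs was measured on 9 single-channel arrays. The authors' deposited values are log2 intensities per transcript cluster, for which the submitters' processing notes name RMA. Its version and settings, and the genome build, were not given in the sources used here. That the scale is log2 is inferred from the range of the values. RMA includes quantile normalization, so a shift common to most genes would be removed before deposit, and it compresses changes of dim probes. Precision is limited by how few arrays there are.

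Of 41801 rows, 34468 probes had a value in all samples, and 23521 of these had 1 symbol in the platform annotation. A gene with several probes was represented by the brightest, giving 22180 genes. The genotypes were compared by limma 3.58.1 in R 4.3.3 (lmFit and eBayes, two-sided, no covariate), with Benjamini-Hochberg adjustment over all genes and a threshold of 0.05. The fit was tested on simulated data. A change is the knockout mean minus the control mean, and SE is its standard error from limma. Promoter windows came from RefSeq (GRCm38.p6). Python 3.11.15, pandas 2.3.3 and matplotlib 3.10.9 were used.

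The 8 members, the 4 lists of related genes and the 9 lists of cell type markers were chosen with earlier results of these data known, so they get counts and no list test. All 8 members were named. In the 4 lists of related genes every gene past 0.05 was named, or else the 2 with the smallest p. In the marker lists the rule took the 2 brightest genes. It also took the 3 genes most like each member past 0.05, with the classes of symbol named above left out. Other genes were chosen after their values were seen. Alternatives covered scaling, variance moderation, weights, a replicate block, subsets of controls, single samples left out, a filter on dim genes, the probe summary and a marker covariate. Replicate numbers 1 to 3 occur in both groups, but same-numbered samples did not deviate together (correlations of -0.14, -0.10 and 0.047), so they were not treated as pairs.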

Additional observations from a re-analysis of the deposited data

Results flagged for a closer look

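Within the 6 controls, 2 of the 8 receptors had a single sample far from the others by Dixon's test, which flags about 1 in 20 groups by chance. Havcr2 was 12.03 in control 3, against 12.26 to 12.35 in the other controls. Without control 3 the Havcr2 change was 0.14. Cd200r1 was 6.04 in control 1, against 6.47 to 6.72 in the other controls. Without control 1 the Cd200r1 change was -0.21, and over all samples left out in turn it was -0.21 to -0.061.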

How the results depend on the processing

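Over the 19 other settings, the count of 201 genes past 0.05 was 652 with array weights, 537 with the filter on dim genes, 20 when only controls 4 to 6 were used and 3 with only controls 1 to 3, 8 with the macrophage marker covariate (added after seeing the data), and 33 to 332 with 1 sample left out. With the replicate block it was 2. The count of receptors past 0.05, which was 1 (Lilrb4a), was 0 with the replicate block, against controls 1 to 3 or 4 to 6 and with the covariate, and 0 to 1 with 1 sample left out. In the replicate block Lilrb4a changed by 0.56 (adjusted p = 0.41), and the same-numbered samples share only a number. The sign turned for Cd200r1 (0.025 with the replicate block and against controls 1 to 3), for Cd300a (-0.0095 with the covariate) and for Siglece (-0.0043 against controls 4 to 6, and -0.040 without knockout 1, in a range of -0.040 to 0.13 with 1 sample left out), none of which passed in any setting. The other 5 receptors kept their direction in all 19. For Lilrb4a and Cd300lf, whose groups did not overlap, leaving samples out could not turn it. Some of these settings hold fewer samples, and otherwise the cause was not tested. Signal over background was not analysed here.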

Other observations

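Ctla4, an inhibitory receptor known from T cells, differed between the knockout samples themselves, and it was chosen after its values were seen. Its log2 intensity was 7.46, 7.23 and 5.70 in knockouts 1 to 3, against 4.91 to 5.78 in the controls. Knockouts 1 and 2 lay far above every control and knockout 3 within their range, and the change was 1.30 (SE 0.34, limma's adjusted p = 0.10). The T and NK cell markers had medians of 0.088, -0.018 and -0.0072 in the same knockouts. Ceacam1, an ITIM receptor also reported as a ligand of TIM-3, was likewise chosen after its values were seen. It had 10.50, 9.93 and 10.40 in knockouts 1 to 3, against 9.30 to 9.91 in the controls, without overlap (change 0.61, SE 0.15, limma's adjusted p = 0.085).

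Dok2, an adaptor recruited by CD200R1, had the same value of 6.04 in all 3 knockouts and in control 3, so its SD among the knockouts is no measure of their spread. Among the 8 receptors 2 had an equal pair, Pirb in controls 2 and 4 (9.87) and Siglece in controls 4 and 5 (8.08), so their SDs among the controls rest in part on repeated values. Between any pair of arrays 1201 to 1761 of the 34468 probes had equal values. Values were called equal only when identical to every deposited digit, a tolerance of 0.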
